A study of Mus musculus with 50 samples.

Results

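Gene expression in luminal cells sorted from the mammary glands of DN-Clim mice (2 arrays) was compared with that in luminal cells of wild type (WT) mice (2 arrays). The members are the 4 samples whose tissue label is luminal, of 50 arrays in the series, each an Affymetrix Mouse Gene 1.0 ST array hybridized with the RNA of 1 sample. All 4 came from mice aged 10 weeks on the CB6F1 background, as did 2 DN-Clim and 2 WT arrays of sorted basal cells, and the mice were littermates. The other 42 arrays held laser-captured ducts and terminal end buds (TEBs) of both genotypes at 4, 6, 8 and 10 weeks. DN-Clim is the part of the Clim cofactors that binds LIM domains, joined to a nuclear localization signal and a Myc tag. Its transgene is driven by the keratin 14 (K14) promoter, which is active in basal cells, so that the luminal cells of these glands lie beside the cells targeted by the transgene. Luminal cells were gated as CD24+ with low CD29 after removal of cells with CD31, CD45 or TER119. The titles of the 4 luminal samples write CD29hi, whereas their tissue, source and description fields name luminal cells and CD29lo.

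Clims bind no DNA themselves and link LIM-homeodomain and LIM-only proteins to transcription complexes, and a Clim that binds LIM domains but cannot dimerize blocks that link. Luminal cells form the simple epithelium around the lumen of the duct and make keratins 8 and 18, while the surrounding basal myoepithelial cells make keratins 5 and 14 and smooth muscle actin. Epidermis and other stratified squamous epithelia instead make their own keratins and, in their outer layers, a cornified envelope of involucrin, small proline-rich and late cornified envelope proteins that transglutaminases join into a sheet.

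The luminal label was checked against cell type markers on every array. Levels are intensities on the linear scale of the deposited table, and a value of 150, the study's filter for sorted cells, served as the lower limit of a measured level. All 16 pan-luminal markers were at 150 or more on the 4 luminal arrays. Krt8 measured 14480 and 14500 in DN-Clim luminal cells and 11760 and 12950 in WT luminal cells. Krt5 measured 50.3 and 83.1 in DN-Clim luminal cells and 43.0 and 81.2 in WT luminal cells, against 5190 to 7389 on the 4 basal arrays. The sorted populations were thus far apart on these keratins whatever the titles say. The 19 basal markers summed to 7741 and 10410 in DN-Clim luminal cells and 5986 and 6221 in WT luminal cells. At an unadjusted p under 0.05 in the fit described below, 6 of the 19 were higher and 0 lower in DN-Clim luminal cells (31.6%, against 3.13% of all genes higher), with a median log2 difference of 0.42 that was 0.12 without DN-Clim luminal replicate 2. Those 6 were Trp63, Lamb3, Krt17, Actg2, Itgb4 and Itga6. Itgb4, an integrin subunit, stood at 70.8% and 92.3% of its mean WT basal intensity in DN-Clim luminal cells and 48.4% and 48.8% in WT luminal cells. Vim, an intermediate filament of basal and stromal cells, was at 27.3% on DN-Clim luminal replicate 2, against 4.91% on replicate 1 and 3.67% and 5.55% on the WT luminal arrays.

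DN-Clim luminal replicate 2 stood apart on the markers of stromal, endothelial, myeloid and dividing cells. The mean log2 intensity of 20 fibroblast and matrix genes was 6.92 and 8.07 in DN-Clim luminal cells and 6.81 and 6.60 in WT luminal cells. That of 15 endothelial genes was 6.64 and 7.94 in DN-Clim luminal cells and 6.58 and 6.93 in WT luminal cells, and that of 9 macrophage and myeloid genes was 6.50 and 7.84 against 6.52 and 6.35. On this scale replicate 2 of DN-Clim was the high array in each list. By summed intensity the fibroblast list was at 7411 and 7461 in DN-Clim luminal cells and 3578 and 2744 in WT luminal cells. By this sum replicate 1 was above WT as well, but most of its sum came from the members Dcn (4168) and Col6a3 (1286). In WT luminal cells Dcn measured 1182 and 711 and Col6a3 162 and 140.3. Members at 150 or more numbered 6 on DN-Clim replicate 1 and 7 and 5 on the WT luminal arrays. The adipocyte list, with 8 genes, was at 6.70 and 7.55 in DN-Clim luminal cells and 6.09 and 6.41 in WT luminal cells. It summed to 1707 and 1820 in DN-Clim luminal cells and 579 and 742 in WT luminal cells, with 1078 of the replicate 1 sum from Lpl. Its member Lpl, a lipoprotein lipase, measured 1078 and 359 in DN-Clim luminal cells and 97.2 and 38.9 in WT luminal cells, at least 4.79-fold over the filter (adjusted p = 0.175, limma), whereas Adipoq, Lep and Retn reached 150 on none of the sorted-cell arrays. Of 37 cell cycle and DNA replication genes, 16 and 36 reached 150 in DN-Clim luminal cells and 28 and 30 in WT luminal cells, and all 37 had overlapping groups. Mki67, a marker of dividing cells, measured 197 and 1224 in DN-Clim luminal cells and 352 and 746 in WT luminal cells. The part of other cells in the results below was not tested. In bulk samples such as these, fewer cells of a type and less RNA per cell cannot be told apart.

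**Figure D1:**
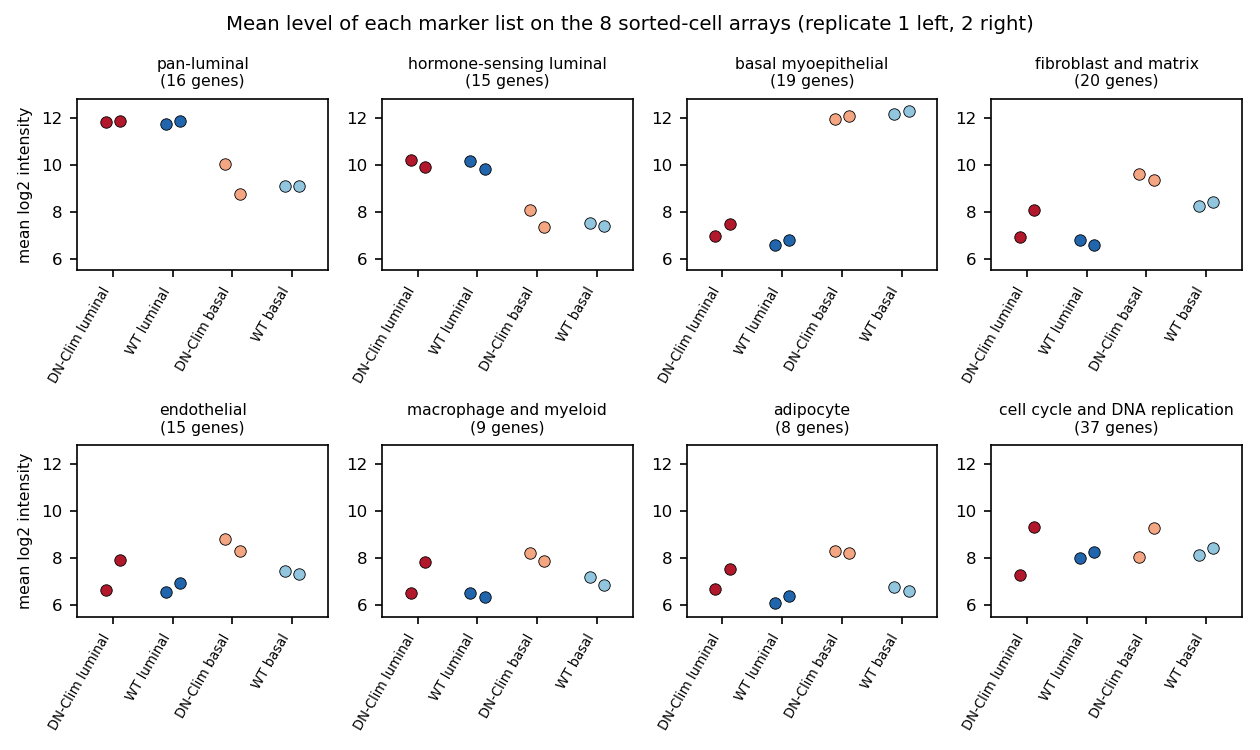
Mean log2 intensity (y axis) of 8 gene lists, 1 panel each, in the 4 sorted groups along the x axis, with 1 point per array and replicate 1 on the left. The pan-luminal list lies near 11.8 on all 4 luminal arrays, and DN-Clim luminal replicate 2 lies above the other luminal arrays in the fibroblast, endothelial, macrophage, adipocyte and cell cycle lists.

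DN-Clim luminal cells had higher RNA for an epidermal envelope protein, a squamous epithelial protease, a chemokine, a hyaluronan synthase and a collagen chain, and lower RNA for 1 transcription factor. Of 12471 genes tested, 7 passed an adjusted p of 0.05 (0.0561%), 6 of them higher (0.0481%) and 1 lower (0.00802%) in DN-Clim luminal cells, in a limma fit of the 8 sorted-cell arrays with Benjamini-Hochberg adjustment. At an unadjusted p under 0.05 there were 1043 genes (8.36%), 390 of them higher (3.13%) and 653 lower (5.24%), a split that was 459 and 495 after quantile normalization. With a rule of 1.5-fold and an unadjusted p under 0.001 in the same fit, 52 genes were higher (0.417%) and 17 lower (0.136%), 4 of the higher ones in the cornified envelope list. With 0.01 in place of 0.001, 129 genes were higher (1.03%) and 115 lower (0.922%). Both thresholds appear in the methods and legends for the sorted cells. The median log2 difference of all genes was -0.06. Groups of 2 arrays did not overlap for many genes, with 2079 genes (16.7%) higher and 3044 genes (24.4%) lower in DN-Clim luminal cells. The replicates are labelled biological, and the p-values measure the spread between these few samples, whose number limits the precision. Of the genes tested, 138 reached 150 on DN-Clim luminal arrays only. They entered the test through their DN-Clim luminal values, which favors higher differences there. Tmprss11a and Fam83e are among them.

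Tmprss11a, a membrane-anchored serine protease of squamous epithelia, measured 958 and 1667 in DN-Clim luminal cells and 45.1 and 38.0 in WT luminal cells. Both WT values lay under 150, and set against that filter the DN-Clim mean was at least 8.75-fold higher. The fitted log2 difference was 4.93 (SE 0.32, adjusted p = 0.00755, limma). Here and below, a fitted difference is no exact fold where both values of a group lie under 150, and the bound against 150 is given beside it. Ivl, which encodes involucrin of the cornified envelope, measured 1865 and 4419 in DN-Clim luminal cells and 224 and 200.2 in WT luminal cells. The groups were far apart, with replicate 2 of DN-Clim the higher (log2 difference 3.76, SE 0.37, adjusted p = 0.0362, limma). Fam83e, a protein of the FAM83 family, measured 419.6 and 489.5 in DN-Clim luminal cells and 96.1 and 118.6 in WT luminal cells. Its WT values were under the filter, and the DN-Clim mean was at least 3.03-fold higher (log2 difference 2.09, SE 0.21, adjusted p = 0.0362, limma). In basal cells these genes stayed low in both genotypes, Tmprss11a at 30.8 and 36.5 in DN-Clim and 29.8 and 25.8 in WT, and Ivl at 229.5 and 231 in DN-Clim and 196 and 159.6 in WT.

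A second set of increases was in genes of the stroma and the extracellular matrix. Cxcl12, the chemokine ligand of Cxcr4, measured 334 and 748 in DN-Clim luminal cells and 19.6 and 33.0 in WT luminal cells. It rose by 4.30 on the log2 scale (SE 0.40, adjusted p = 0.0362, limma), at least 3.61-fold over the filter. Has2, which makes hyaluronan, measured 502 and 485.5 in DN-Clim luminal cells and 40.1 and 59.0 in WT luminal cells, with a log2 difference of 3.34 (SE 0.32, adjusted p = 0.0362, limma) and a bound of at least 3.29-fold. Col6a3, a chain of collagen VI, measured 1286 and 1083 in DN-Clim luminal cells and 162 and 140.3 in WT luminal cells, and its log2 difference was 2.97 (SE 0.17, adjusted p = 0.00559, limma). The 2 DN-Clim replicates lay close together for Has2 and Col6a3, whereas for Cxcl12 replicate 2 was the higher.

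Basal cells expressed Cxcl12 and Has2 at high levels, so their values were set beside basal markers. Relative to the mean WT basal intensity, Cxcl12 stood at 25.2% and 56.5% and Has2 at 26.3% and 25.4% in DN-Clim luminal cells, while both lay under the filter in WT luminal cells. Krt14 measured 69.7 and 163 in DN-Clim luminal cells and 57.0 and 96.7 in WT luminal cells. Acta2, smooth muscle actin, measured 266 and 864 in DN-Clim luminal cells and 298 and 502 in WT luminal cells, which is 2.18% and 7.08% of its WT basal intensity in DN-Clim luminal cells. The groups of both overlapped, and the basal list as a whole had 6 of 19 genes higher as given above. The part of basal cells in the Cxcl12 and Has2 values was not tested. For Col6a3 the intensity in DN-Clim luminal cells exceeded that in basal cells (297 and 326 in DN-Clim, 97.9 and 83.8 in WT). Of the 20 fibroblast and matrix genes, Col6a3 among them, 6 and 15 reached 150 in DN-Clim luminal cells and 7 and 5 in WT luminal cells. Dcn, an abundant proteoglycan of fibroblasts, measured 4168 and 1362 in DN-Clim luminal cells and 1182 and 711 in WT luminal cells. Of the other 7 collagen genes of that list, 5 had overlapping groups, and Col3a1 and Col5a1 were higher on both DN-Clim arrays with log2 differences of 0.40 and 0.14 (adjusted p = 0.606 and 0.787, limma). Col1a2 measured 81.7 and 537 in DN-Clim luminal cells and 75.1 and 90.8 in WT luminal cells, and Col6a1 84.2 and 211 against 296 and 102.

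Tfap2b, the AP-2 beta transcription factor, fell in DN-Clim luminal cells. It measured 681 and 658 in DN-Clim luminal cells and 3506 and 2353 in WT luminal cells, the lowest WT value being 3.45 times the highest DN-Clim value. The log2 difference was -2.10 (SE 0.20, adjusted p = 0.0362, limma), which is 4.29-fold lower. In basal cells it measured 854 and 760.1 in DN-Clim and 1399 and 1552 in WT. Its relatives Tfap2a and Tfap2c did not pass the test (adjusted p = 0.594 and 0.998, limma), and the groups of Tfap2c overlapped.

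**Figure D2:**
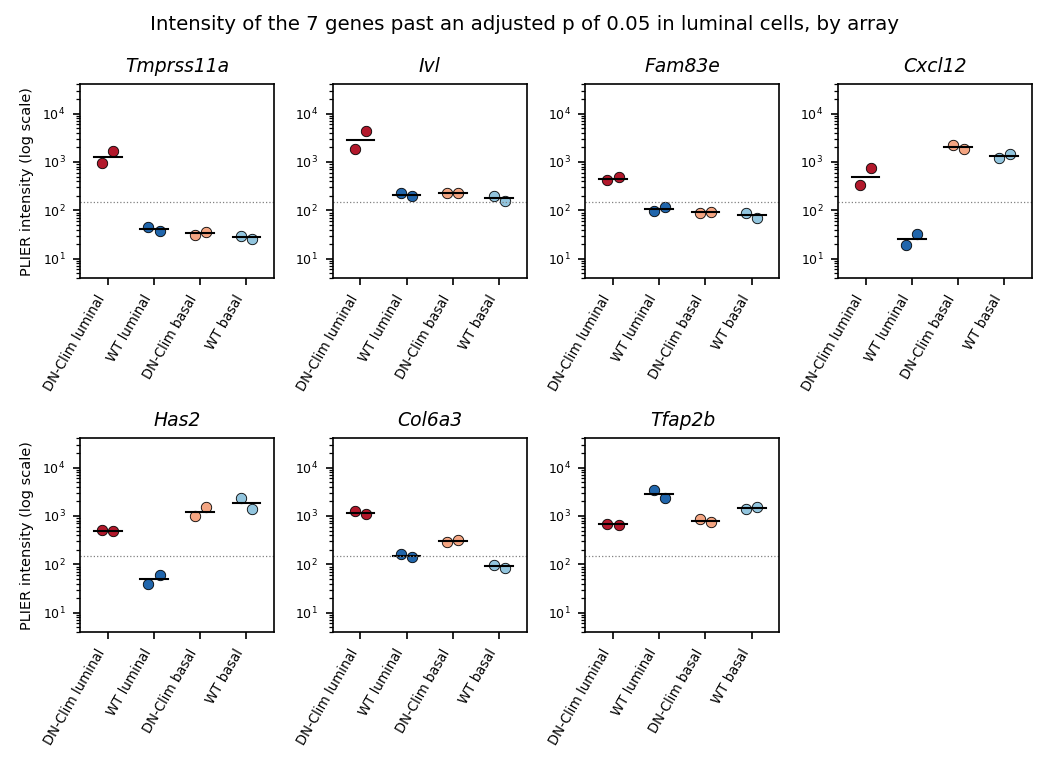
Intensity (log scale) of the 7 genes past the adjusted test in luminal cells, 1 panel per gene, with the 4 sorted groups along the x axis, 1 point per array, bars at the geometric mean of 2 arrays and a dotted line at the filter of 150. Tmprss11a, Ivl and Fam83e are high in DN-Clim luminal cells only, Cxcl12 and Has2 are also high in basal cells of both genotypes, and Tfap2b is lower in DN-Clim luminal than in WT luminal cells.

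These calls rest on few arrays, and on the spread shared with the basal arrays. With the 4 luminal arrays fitted alone none of the 7 passed, their adjusted p ranging from 0.127 for Tmprss11a and Col6a3 to 0.324 for Cxcl12, Ivl and Tfap2b (limma), while the fitted differences were the same. All 7 genes kept their sign when each of the 8 sorted-cell arrays was left out in turn. Col6a3 remained past the threshold in 8 of the 8 fits and Tmprss11a in 7, whereas Ivl remained in 3, Cxcl12 in 2, and Has2, Fam83e and Tfap2b in 1 each. Without DN-Clim luminal replicate 2, the array that stood apart, 4 genes passed, among them Col6a3 and Ivl of the 7. Without DN-Clim luminal replicate 1, 13 passed, and without WT luminal replicate 2, 52 passed (21 higher, 31 lower), all 7 among them.

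Genes of the cornified envelope and its cross-linking were higher in DN-Clim luminal cells wherever the groups did not overlap. Of 51 genes of this list on the array, 25 passed the filter, 5 of them on DN-Clim luminal arrays only, and Ivl passed the adjusted test. At an unadjusted p under 0.05, 9 of the 25 were higher and 0 lower (36% and 0%, against 3.13% and 5.24% of all genes). The groups did not overlap for 16 (64%, against 16.7% of all genes), all higher in DN-Clim luminal cells, and 9 overlapped. The 5 genes that passed on DN-Clim luminal arrays only entered through their DN-Clim values, so that the filter itself favored higher genes in these shares. Without the filter, 11 of the 51 were higher and 0 lower at an unadjusted p under 0.05, against 762 higher and 777 lower of 19938 genes. The median log2 difference of the 25 was 0.30, against -0.06 for all genes, and it was 0.27 without DN-Clim luminal replicate 2, with the same count of 9.

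The other members named here did not pass the adjusted test, and their values are given as measured. Lce6a, a late cornified envelope protein, measured 1465 and 1020 in DN-Clim luminal cells and 28.6 and 78.9 in WT luminal cells (fitted log2 difference 4.68, at least 8.28-fold, adjusted p = 0.0776, limma). Padi4, a deiminase that converts arginine to citrulline in proteins, measured 2659 and 3137 in DN-Clim luminal cells and 102 and 291 in WT luminal cells (log2 difference 4.07, adjusted p = 0.0776). For both genes the groups were separated by more than the distance between replicates. Padi2 and Padi3, deiminases of the same family, had log2 differences of 2.51 and 1.06 (adjusted p = 0.288 and 0.151, limma), with Padi3 under 150 in WT luminal cells and its bound at least 1.87-fold. Sprr1a, a small proline-rich envelope protein, measured 12230 and 12040 in DN-Clim luminal cells and 2307 and 3802 in WT luminal cells (log2 difference 2.03, adjusted p = 0.578). Its level was substantial in WT luminal cells too, and its log2 difference had a wide SE of 0.73. Sprr2f measured 2749 and 763 in DN-Clim luminal cells and 187 and 174 in WT luminal cells (log2 difference 3.01, adjusted p = 0.391). Tgm2, a transglutaminase of many tissues, measured 9251 and 10280 in DN-Clim luminal cells and 4228 and 4874 in WT luminal cells (log2 difference 1.10, adjusted p = 0.188). In basal cells Sprr1a had a log2 difference of 4.23 as well (adjusted p = 0.175, limma), and the median of the list there was 0.26. Sprr1a measured 4122 and 704.5 in DN-Clim basal cells and 106 and 78.0 in WT basal cells. The pan-luminal mean log2 intensity was 10.01 and 8.75 in DN-Clim basal cells and 9.1 and 9.08 in WT basal cells. The part of luminal cells in the basal values was not tested. Members with smaller differences in luminal cells included Tgm1, the main epidermal transglutaminase (log2 difference 0.50), the plakins Evpl and Ppl (0.05 and -0.23) and Sprr1b (0.01).

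The promoters of this group were read from RefSeq (GRCm38.p6, 250 bases before to 50 after the start of the gene). Of the 7 called genes and the 9 cornified envelope genes at an unadjusted p under 0.05, 15 genes in all since Ivl is in both, 13 had a promoter in the table. Both strands were searched for the AP-1 motif TGANTCA, the binding sequence of Jun and Fos dimers, and for TATAAA. The AP-1 motif was found in 4 of the 8 cornified envelope promoters and in 1 of the 6 promoters of called genes (Ivl), against 7.81% of 32851 promoters in the table. TATAAA was found in 5 of the 8 and in 1 of the 6, against 13.6%. A match is a description of the sequence, and with so few promoters nothing is drawn from the shares. Ivl, Padi4 and Sprr1a are shown as 3 of the 4 promoters that carry both motifs (Sprr2f is the other), and Tmprss11a because it had the largest difference of the called genes and carries neither. Capitals mark TGANTCA and TATAAA matches, and each sequence reads 5′ to 3′ on the strand of its gene, here the minus strand, at chr3:92573686-92573985 (Ivl), chr4:140774154-140774453 (Padi4), chr3:92485832-92486131 (Sprr1a) and chr5:86468941-86469240 (Tmprss11a).
Ivl: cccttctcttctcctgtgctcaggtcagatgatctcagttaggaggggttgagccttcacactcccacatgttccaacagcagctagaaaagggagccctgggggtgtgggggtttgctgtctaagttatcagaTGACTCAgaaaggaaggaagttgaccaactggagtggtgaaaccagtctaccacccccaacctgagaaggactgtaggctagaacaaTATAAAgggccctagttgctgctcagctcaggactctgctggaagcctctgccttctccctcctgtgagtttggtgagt
Padi4: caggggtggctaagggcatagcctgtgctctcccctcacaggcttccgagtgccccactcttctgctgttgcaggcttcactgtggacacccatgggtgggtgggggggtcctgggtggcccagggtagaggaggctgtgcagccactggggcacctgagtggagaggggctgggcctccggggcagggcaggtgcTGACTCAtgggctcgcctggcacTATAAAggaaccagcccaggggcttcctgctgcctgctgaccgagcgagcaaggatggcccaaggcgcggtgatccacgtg
Sprr1a: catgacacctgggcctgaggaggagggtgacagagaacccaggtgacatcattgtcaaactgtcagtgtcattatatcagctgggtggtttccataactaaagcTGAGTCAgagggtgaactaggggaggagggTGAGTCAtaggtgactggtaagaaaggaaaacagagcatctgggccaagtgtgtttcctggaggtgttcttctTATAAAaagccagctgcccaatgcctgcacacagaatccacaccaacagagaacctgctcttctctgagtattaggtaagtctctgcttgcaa
Tmprss11a: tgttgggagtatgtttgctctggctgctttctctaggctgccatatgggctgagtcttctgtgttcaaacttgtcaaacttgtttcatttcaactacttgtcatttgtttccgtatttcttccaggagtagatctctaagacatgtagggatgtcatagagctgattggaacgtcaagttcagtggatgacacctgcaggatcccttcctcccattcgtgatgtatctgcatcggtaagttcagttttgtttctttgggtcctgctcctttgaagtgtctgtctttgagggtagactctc

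The AP-1 match of Ivl lies at bases -116 to -110 from the start and its TATAAA match at -29 to -24. In Padi4 they lie at -54 to -48 and at -31 to -26. Sprr1a has AP-1 matches at -146 to -140 and at -116 to -110 and TATAAA at -43 to -38. RNA of the AP-1 subunits was measured too. Jun measured 5962 and 5189 in DN-Clim luminal cells and 7173 and 8137 in WT luminal cells (log2 difference -0.46, adjusted p = 0.464, limma), and Fos 5700 and 4163 against 7201 and 7891 (log2 difference -0.63, adjusted p = 0.519). Neither passed the test. Both were lower in DN-Clim luminal cells without overlap of the groups, as were 24.4% of all genes. Of 29 immediate-early and heat shock genes, 1 was higher and 4 were lower at an unadjusted p under 0.05 (3.45% and 13.8%, against 3.13% and 5.24% of all genes).

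Keratins of stratified epithelia lay higher in DN-Clim luminal cells, with 0 past the adjusted test. Of 19 keratins of this list, 12 passed the filter, 2 on DN-Clim luminal arrays only. Of these, 7 were higher and 0 lower at an unadjusted p under 0.05 (58.3% higher, against 3.13% of all genes). Without the filter, 8 of the 19 were higher and 0 lower at that p, against 762 higher and 777 lower of 19938 genes. The groups of 11 of the 12 did not overlap, all higher in DN-Clim luminal cells (91.7%, against 16.7% of all genes). The median log2 difference was 0.66, and without DN-Clim luminal replicate 2 it was 0.44 and 2 remained at an unadjusted p under 0.05. Krt4, a keratin of internal stratified epithelia, measured 908.5 and 3711 in DN-Clim luminal cells and 41.8 and 86.1 in WT luminal cells (fitted log2 difference 4.93, at least 15.4-fold, adjusted p = 0.0942, limma). Krt6a, which marks activated and wounded epidermis, measured 726 and 4833 in DN-Clim luminal cells and 535 and 277 in WT luminal cells (log2 difference 2.28, adjusted p = 0.575). Krt77, an epidermal keratin, measured 224 and 989 in DN-Clim luminal cells and 121 and 130.4 in WT luminal cells (fitted log2 difference 1.90, at least 4.04-fold, adjusted p = 0.519). All 3 were higher on replicate 2 of DN-Clim. The epidermal keratins Krt1 and Krt10 had log2 differences of 0.15 and 0.07. The 4 simple epithelial keratins had non-overlapping groups, all higher in DN-Clim luminal cells as 16.7% of all genes were, with log2 differences of 0.41 for Krt7, 0.28 for Krt19, 0.23 for Krt8 and 0.12 for Krt18, that of Krt18 being -0.01 after quantile normalization. None of them passed the test.

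**Figure D3:**
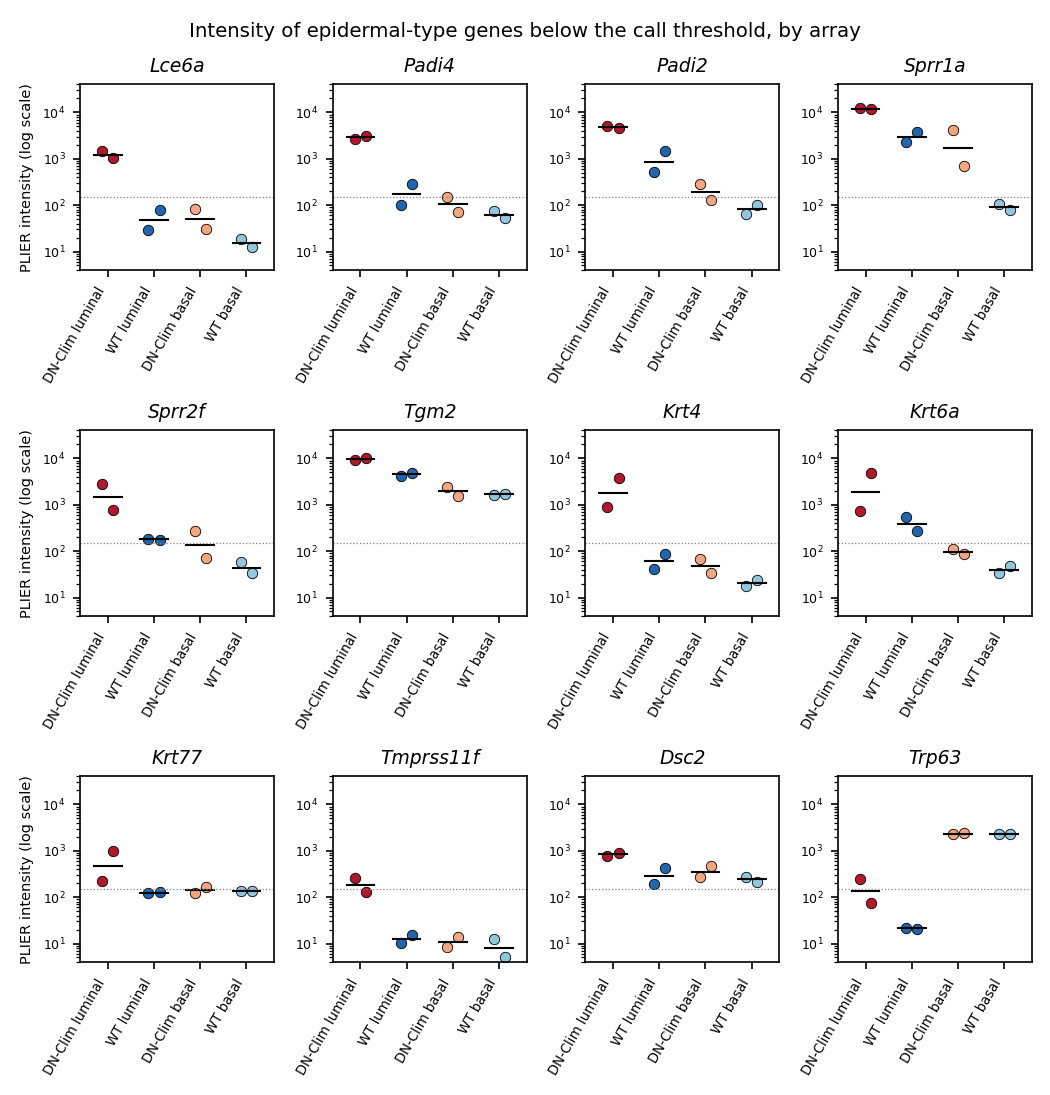
Intensity (log scale) of 12 genes of stratified epithelia that did not pass the adjusted test, in the 4 sorted groups, with points for arrays, bars for the geometric mean of 2 arrays and a dotted line at 150. Lce6a, Padi4 and Krt4 are above 900 on both DN-Clim luminal arrays and under 300 on every other array.

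Among squamous serine proteases and their inhibitors, 10 of 24 genes passed the filter, 2 on DN-Clim luminal arrays only, and Tmprss11a rose as described. At an unadjusted p under 0.05, 5 of the 10 were higher and 0 lower (50%, against 3.13% of all genes higher). Without the filter, 6 of the 24 were higher and 0 lower at that p, against 762 higher and 777 lower of 19938 genes. The 5 became 3 without DN-Clim luminal replicate 1 or 2, 2 without WT luminal replicate 1 and 3 without WT luminal replicate 2. Tmprss11f, of the same protease family, measured 253 and 130.0 in DN-Clim luminal cells and 10.1 and 15.3 in WT luminal cells. Its fitted log2 difference was 3.87 (adjusted p = 0.443, limma). Its bound of 1.28-fold for the DN-Clim mean rests on replicate 1, since replicate 2 lay under the filter. The kallikreins Klk10 and Klk7 had log2 differences of 0.84 and 0.47, and the protease inhibitor Serpinb5 of 0.47 (adjusted p = 0.596, 0.535 and 0.482), Klk10 and Klk7 being under 150 in WT luminal cells with bounds of at least 1.67-fold and 1.16-fold. St14 and Prss8, proteases that simple epithelia also make, had log2 differences of 0.01 and -0.24. Of 11 desmosome genes, 3 were higher and 0 lower at an unadjusted p under 0.05 (27.3%, against 3.13% of all genes higher), and their median log2 difference was 0.31, or 0.07 without DN-Clim luminal replicate 2. Dsc2, a desmosomal cadherin, measured 782 and 902 in DN-Clim luminal cells and 193 and 420.2 in WT luminal cells (log2 difference 1.56, adjusted p = 0.419, limma), and Perp had a log2 difference of 0.65 (adjusted p = 0.443). The remaining one, Dsc3, lay far under the filter on all luminal arrays.

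Of 20 transcription factors of squamous epithelia, 3 were higher and 2 lower at an unadjusted p under 0.05 (15% and 10%, against 3.13% and 5.24% of all genes). Their median log2 difference was 0.00. Trp63, the p63 factor of basal and stratified epithelial cells, measured 244 and 73.2 in DN-Clim luminal cells and 21.4 and 20.9 in WT luminal cells (adjusted p = 0.175, limma). It reached 150 on DN-Clim replicate 1 only, so that the bound of 1.06-fold for the DN-Clim mean against the filter rests on that array. Bnc1, a zinc finger factor of basal keratinocytes, measured 308 and 414 in DN-Clim luminal cells and 60.9 and 74.6 in WT luminal cells (fitted log2 difference 2.40, at least 2.41-fold, adjusted p = 0.185). Gsc, a homeobox factor, had a fitted log2 difference of 0.89 (at least 1.24-fold, adjusted p = 0.397). Klf4, Grhl3 and Ovol1, factors of epidermal differentiation, had log2 differences of 0.12, -0.21 and 0.12.

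None of the luminal identity genes passed the adjusted test. The pan-luminal and progenitor lists differed less than the hormone-sensing list. Of 16 pan-luminal genes, 0 were higher and 1 was lower at an unadjusted p under 0.05 (Grhl2, log2 difference -0.54), with a median of 0.12. Gata3, a luminal transcription factor, measured 3398 and 2440 in DN-Clim luminal cells and 3320 and 3835 in WT luminal cells, with overlapping groups. Its log2 difference was -0.31 with a 95% interval of -0.81 to 0.19. Of 15 genes of hormone-sensing luminal cells, 2 were higher and 3 lower at an unadjusted p under 0.05 (13.3% and 20%, against 3.13% and 5.24% of all genes). Their groups did not overlap for 6 higher and 5 lower genes (40% and 33.3%, against 16.7% and 24.4% of all genes). Of 19 luminal progenitor and milk genes none was higher or lower at that p, and the groups of 17 overlapped. Esr1, the estrogen receptor, measured 2133 and 1704 in DN-Clim luminal cells and 2934 and 2820 in WT luminal cells (log2 difference -0.59, 95% interval -1.51 to 0.32, adjusted p = 0.674, limma). Pgr, the progesterone receptor, measured 4178 and 2297 in DN-Clim luminal cells and 1812 and 2151 in WT luminal cells (log2 difference 0.65, 95% interval -0.19 to 1.49, adjusted p = 0.642). Both intervals are wide and include no difference.

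Targets and partners of hormone signaling went in both directions. Greb1, an estrogen receptor target, measured 1067 and 671 in DN-Clim luminal cells and 289.5 and 13.7 in WT luminal cells (log2 difference 3.75, adjusted p = 0.535, limma). Its value on WT replicate 2 lay under the filter, and its difference ranged from 1.55 to 5.95 when 1 array was left out. Cited1, a coactivator found in hormone-sensing cells, measured 1281 and 2569 in DN-Clim luminal cells and 5737 and 5328 in WT luminal cells (log2 difference -1.61, adjusted p = 0.406). Wnt4, a paracrine signal induced by progesterone, measured 1427 and 926 in DN-Clim luminal cells and 2656 and 2250 in WT luminal cells (log2 difference -1.09, adjusted p = 0.284). None passed the test. The groups of each did not overlap, as for 16.7% of all genes higher and 24.4% lower in DN-Clim luminal cells. Tox3, an HMG-box factor, was under 150 in DN-Clim luminal cells, at least 1.99-fold lower than in WT luminal cells (fitted log2 difference -1.67, adjusted p = 0.342, limma). Tnfsf11, the RANK ligand, measured 303 and 321 in DN-Clim luminal cells and 4929 and 294.5 in WT luminal cells, so that its log2 difference of -1.95 came from WT replicate 1 and was 0.08 without that array.

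Receptors of the ErbB and FGF families that the study follows were lower in DN-Clim luminal cells or had overlapping groups. Erbb2 measured 1394 and 1104 in DN-Clim luminal cells and 2359 and 2157 in WT luminal cells. Both DN-Clim values lay under both WT values, with a log2 difference of -0.86 (SE 0.17, unadjusted p = 0.00141, adjusted p = 0.211, limma). Erbb3 measured 3178 and 2478 in DN-Clim luminal cells and 4660 and 4006 in WT luminal cells, with a log2 difference of -0.62 (SE 0.19, adjusted p = 0.506, limma). Its groups did not overlap either, as for 24.4% of all genes in this direction. Fgfr2, a receptor for fibroblast growth factors, measured 3557 and 2401 in DN-Clim luminal cells and 2837 and 5682 in WT luminal cells. Its groups overlapped, and its log2 difference of -0.46 (SE 0.33, adjusted p = 0.689) was 0.04 without WT luminal replicate 2. Of 11 ErbB receptors and ligands, 2 were higher and 3 lower at an unadjusted p under 0.05 (18.2% and 27.3%, against 3.13% and 5.24% of all genes). The higher ones were the ligands Btc and Hbegf, with log2 differences of 0.92 and 0.67, and the ligand Nrg4 was lower at -1.65 (adjusted p = 0.596 for each, limma). Nrg4 measured 240 and 142 in DN-Clim luminal cells and 275 and 1223 in WT luminal cells. Its difference ranged from -2.72 to -0.57 when 1 array was left out. Of 16 FGF receptors and ligands 2 were higher and 1 was lower (12.5% and 6.25%), namely Fgf1 with a log2 difference of -1.23 (adjusted p = 0.284, limma). Of 30 Wnt genes 2 were higher and 5 lower (6.67% and 16.7%).

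**Figure D4:**
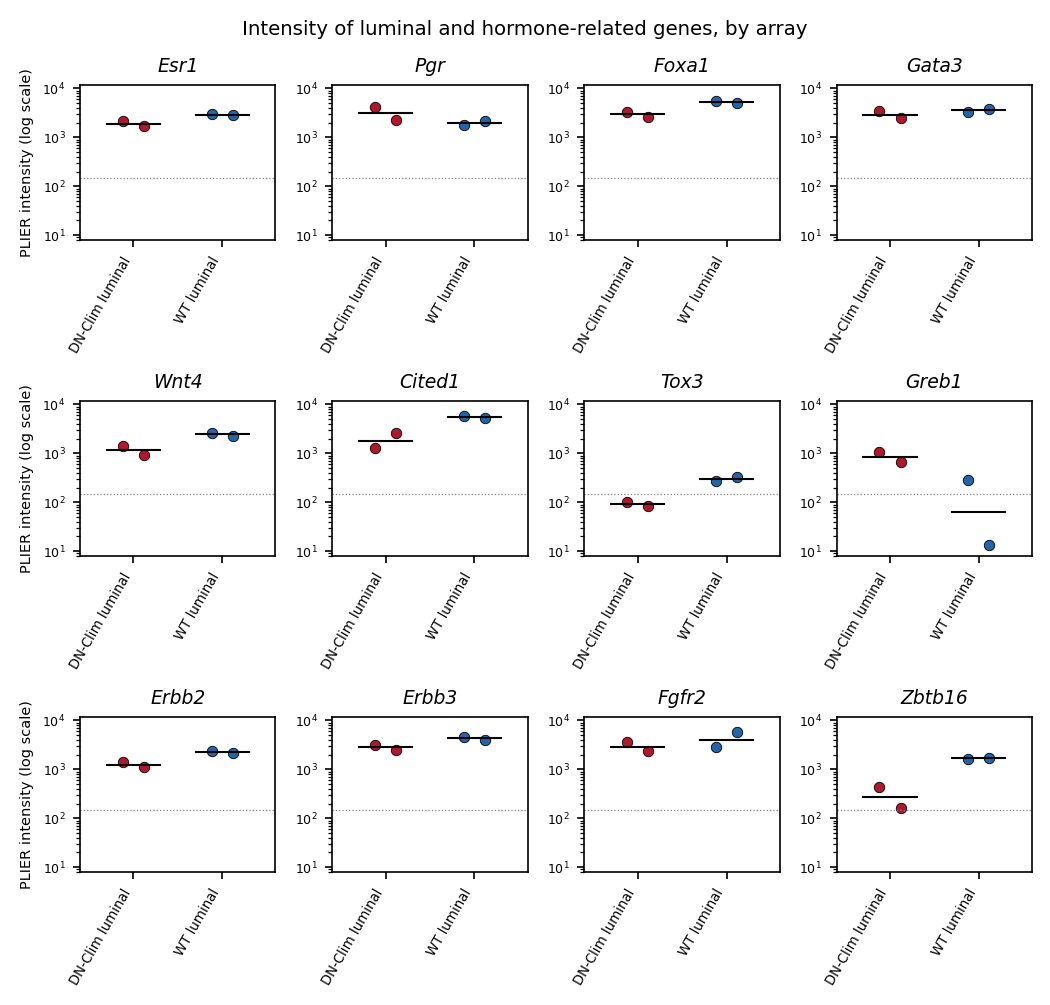
Intensity (log scale) in luminal cells of 12 genes of luminal identity, hormone response and growth factor signaling (y axis), none past the adjusted test, with DN-Clim on the left and WT on the right of each panel, 1 point per array, bars at the geometric mean of 2 arrays and a dotted line at 150. The groups overlap for Gata3 and Fgfr2, Erbb2, Erbb3, Wnt4 and Cited1 are lower on both DN-Clim arrays, and Greb1 is higher on both.

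In the glycolysis and cholesterol lists the medians were positive and 0 genes passed the adjusted test. Of 21 glycolysis and hypoxia genes, 10 were higher and 0 lower at an unadjusted p under 0.05 (47.6%, against 3.13% of all genes). Non-overlapping higher groups were found for 15 (71.4%, against 16.7% of all genes), and the median log2 difference was 0.55. Ndrg1, a gene induced by hypoxia, measured 4429 and 3284 in DN-Clim luminal cells and 1409 and 1747 in WT luminal cells (log2 difference 1.28, adjusted p = 0.179, limma). Hif1a, the subunit that hypoxia stabilizes, measured 5961 and 4159 in DN-Clim luminal cells and 2237 and 2462 in WT luminal cells (log2 difference 1.09, adjusted p = 0.185). Tpi1, a glycolytic enzyme, measured 4735 and 4446 in DN-Clim luminal cells and 2923 and 2955 in WT luminal cells (log2 difference 0.64, adjusted p = 0.175). The values of each were higher on both DN-Clim arrays. Of 19 genes of cholesterol synthesis and uptake, 5 were higher and 1 lower at an unadjusted p under 0.05 (26.3% higher, against 3.13% of all genes), with a median of 0.54. The 5 became 10 without WT luminal replicate 1 (median 0.71), 1 without WT luminal replicate 2 (median 0.31) and 3 without DN-Clim luminal replicate 1 or 2. Fdft1, squalene synthase, had a log2 difference of 0.59 and Cyp51, lanosterol demethylase, of 1.23 (adjusted p = 0.446 and 0.51, limma), and the member that was lower was Abca1, which exports cholesterol, at -1.60 (adjusted p = 0.448).

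In the interferon and glucocorticoid lists the medians were negative and 0 genes passed the adjusted test. Of 19 interferon response and antigen presentation genes, 0 were higher and 6 lower at an unadjusted p under 0.05 (31.6%, against 5.24% of all genes), and the median was -0.38. The 6 became 2 after quantile normalization, 1 without WT luminal replicate 1, and 2 and 3 without DN-Clim luminal replicate 1 and 2. Irf7, under 150 in DN-Clim luminal cells and at least 1.26-fold lower there, had a fitted log2 difference of -0.91 and B2m, the light chain of class I molecules, of -0.44 (adjusted p = 0.519 and 0.549, limma). Of 13 glucocorticoid-induced genes, 0 were higher and 4 lower at an unadjusted p under 0.05 (30.8%, against 5.24% of all genes lower), 8 had overlapping groups, and the 4 became 2 without WT luminal replicate 1. Zbtb16 measured 442 and 166 in DN-Clim luminal cells and 1638 and 1703 in WT luminal cells (log2 difference -2.63, adjusted p = 0.135), and Tsc22d3 190.2 and 189.5 in DN-Clim luminal cells and 755 and 424.5 in WT luminal cells (log2 difference -1.58, adjusted p = 0.157). The 2 WT arrays were not alike in this list, since Fkbp5, another such gene, measured 994 and 125 on them, against 115 and 131 in DN-Clim luminal cells.

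Other lists gave few differences, where 3.13% of all genes were higher and 5.24% lower at an unadjusted p under 0.05. Of 14 mucosal defence genes, 1 was higher and 1 lower at an unadjusted p under 0.05, the membrane mucin Muc13 (3635 and 2367 in DN-Clim luminal cells, 888 and 670.2 in WT luminal cells) and the lipopolysaccharide-binding protein Lbp (616 and 898 in DN-Clim luminal cells, 2069 and 2520 in WT luminal cells). In the retinoid list, of 16 genes, Rdh10, which makes retinal, was higher with a log2 difference of 1.17 (adjusted p = 0.0776, limma), and Dhrs3, which reverses that step, was lower with -0.89 (adjusted p = 0.596). Of 15 Notch pathway genes 0 were higher and 1 was lower. Of 11 Clims, LIM factors and partners 0 were higher and 1 was lower, Ldb1, which encodes Clim2, at 2689 and 2628 in DN-Clim luminal cells and 3464 and 3714 in WT luminal cells (log2 difference -0.43, adjusted p = 0.597). Whether its probes cover the part of Clim that the transgene holds is not known here, so its level does not check the transgene.

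**Figure D5:**
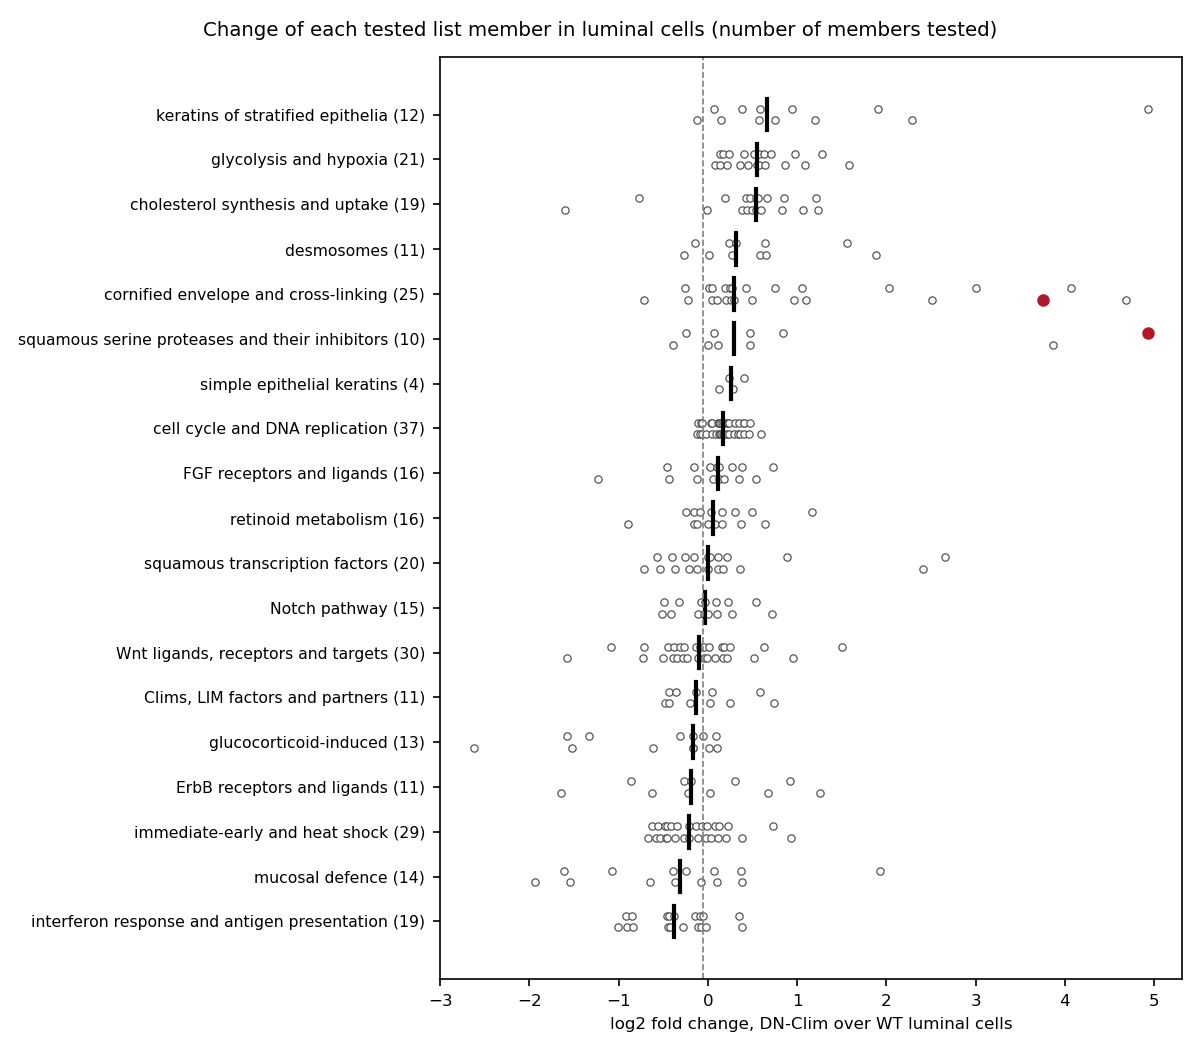
Log2 difference of DN-Clim against WT luminal cells (x axis) for each tested member of 19 gene lists, 1 row per list with the number tested, red points for members past an adjusted p of 0.05, black bars at the median of the list and a dashed line at the median of all genes. The points of the cornified envelope and keratin lists extend to the right, up to 4.68 and 4.93, and those of the glycolysis list lie to the right of 0.

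Some genes outside the lists did not pass the adjusted test and were chosen after their values were seen. Their adjusted p in the fit of the 8 sorted-cell arrays ranged from 0.0507 to 0.135. Phactr1, a regulator of actin, measured 1067 and 594 in DN-Clim luminal cells and 82.9 and 125 in WT luminal cells (fitted log2 difference 2.97, at least 5.54-fold, adjusted p = 0.0507, limma). Furin, a proprotein convertase, measured 3991 and 3294 in DN-Clim luminal cells and 1283 and 1427 in WT luminal cells (log2 difference 1.42, adjusted p = 0.0507). The largest log2 difference of all was that of Aoc1, diamine oxidase, which measured 6857 and 6018 in DN-Clim luminal cells and 193 and 193 in WT luminal cells (log2 difference 5.06, adjusted p = 0.135). Its replicates lay close together in luminal cells, and with the 4 luminal arrays fitted alone it was the 1 gene past the threshold (adjusted p = 0.0148). In basal cells Aoc1 measured 867 and 114 in DN-Clim and 15.7 and 16.9 in WT (basal log2 difference 4.27, adjusted p = 0.191, limma), and the difference between the luminal and basal effects was 0.79 (adjusted p = 0.9999). Among lower genes, Kitl, the Kit ligand, measured 378 and 428 in DN-Clim luminal cells and 990.4 and 1016 in WT luminal cells (log2 difference -1.32, adjusted p = 0.082). Scara5, a ferritin receptor, measured 845 and 552 in DN-Clim luminal cells and 4309 and 2232 in WT luminal cells (log2 difference -2.18, adjusted p = 0.125).

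The DN-Clim effect in luminal cells was set against that in basal cells by the difference of the 2 effects in the same fit. It passed an adjusted p of 0.05 for 6 genes (0.0481%), all with a more positive effect in luminal than in basal cells. For Tmprss11a the effect was 4.93 in luminal cells and 0.27 in basal cells, a difference of 4.66 (SE 0.46, adjusted p = 0.0421, limma). For the other 5, Wif1, Cacng7, Nlgn1, Lrrc4c and Wfikkn2, the luminal effect was between 0.16 and 0.33 and the basal effect between -3.94 and -2.05. Wif1, a secreted Wnt inhibitor, measured 84.1 and 79.7 in DN-Clim luminal cells and 64.5 and 74.2 in WT luminal cells, against 194 and 244 in DN-Clim basal cells and 2545 and 3906 in WT basal cells. Its difference of 4.10 (SE 0.33, adjusted p = 0.0312) thus came from basal cells, since its luminal values lay under 150 in both genotypes. The remaining increases of luminal cells did not pass this test. Col6a3 was higher in both populations, with a basal effect of 1.78 (adjusted p = 0.0238, limma, where 0.00802% of genes were called higher and 0.0722% lower in basal cells) and a difference of 1.19 (adjusted p = 0.418).

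Laser-captured ducts and TEBs, which hold luminal and basal cells together, gave other samples in which the 7 genes could be compared. Tfap2b was lower in DN-Clim ducts, at 621 to 1632 with a median of 1132 (n = 11), than in WT ducts, at 1267 to 3365 with a median of 2028 (n = 10). Averaged over the 4 ages its log2 difference was -0.84 (SE 0.14, adjusted p = 0.0032, limma, where 6.03% of 12975 genes were called lower). In TEBs it measured 402 to 1205 with a median of 944 in DN-Clim (n = 11) and 1320 to 2655 with a median of 1750 in WT (n = 10), with a log2 difference of -0.98 (SE 0.16, adjusted p = 0.0125, limma, where 0.751% of 13184 genes were called lower). The TEB groups did not overlap, while the duct groups did. Cxcl12 had a log2 difference of 0.26 in ducts (SE 0.08, adjusted p = 0.0317, limma, where 8.79% of genes were called higher) and of 0.15 in TEBs (adjusted p = 0.332, where 0.394% were called higher). At 10 weeks alone its log2 difference was -0.175 in ducts and -0.167 in TEBs (adjusted p = 0.594 and 0.942, limma), so that the sign turned and the duct call was lost.

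Tmprss11a, Ivl, Has2, Col6a3 and Fam83e did not pass in ducts or TEBs. Averaged over the ages, Col6a3 had log2 differences of -0.12 in ducts and -0.07 in TEBs (adjusted p = 0.699 and 0.851, limma). It was thus not higher there as it was in sorted cells, whereas Tmprss11a, Ivl, Has2 and Fam83e had positive differences in both. At 10 weeks, the age of the sorted cells, Tmprss11a measured 4041, 86.7 and 50.5 in DN-Clim ducts and 94.6 and 53.8 in WT ducts. In TEBs of that age it measured 3776, 122 and 18.0 in DN-Clim and 140.1 and 50.2 in WT. At this age replicate 1 of DN-Clim was high in both structures and the other values lay under 150. At 6 weeks the mean of Tmprss11a was 618 in DN-Clim ducts and 50.9 in WT ducts, and 439 in DN-Clim TEBs and 38.9 in WT TEBs, whereas at 4 and 8 weeks the means of both genotypes lay under 60. Ivl at 10 weeks was also high on replicate 1, with 1901, 206 and 159 in DN-Clim ducts and 188 and 176 in WT ducts. Whether ducts and TEBs of 1 replicate number came from 1 mouse is not stated in the labels. At 10 weeks alone Tfap2b had log2 differences of -0.38 in ducts and -0.60 in TEBs, neither past the test. Few genes were called at that age, 1 higher (0.00771%) and 4 lower (0.0308%) in ducts and 0 in TEBs, where 209 genes were higher and 822 lower at an unadjusted p under 0.05 (limma).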

How the data were processed

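RNA of sorted mammary cells and of laser-captured ducts and TEBs was hybridized to 50 arrays (Affymetrix Mouse Gene 1.0 ST), of which the 4 luminal arrays are described here. The deposited table holds intensity values on a linear scale, which the authors computed with PLIER from the array scans (version not stated), and replicates were not pooled. Per the labels RNA was extracted with Direct-zol, whereas the methods of the study name RNeasy. Median intensity of the 8 sorted-cell arrays was 119.4 to 129.7.

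Intensities below 1 were raised to 1 before the log2 transform. Probe sets at 150 or more on at least 1 sorted-cell array were kept (200 for laser capture), which were 19534, and 1 probe set per gene, that with the highest mean, gave 12471 genes. Of 35557 probe sets, 21789 had 1 gene symbol, 1621 several and 12147 none, and only those with 1 were named. Of 646 symbols written in the gene lists, 590 matched. The 8 sorted-cell arrays were fitted in limma 3.58.1 (R 4.3.3) with 1 mean per group and a variance trend, two-sided, with Benjamini-Hochberg adjustment over all genes. Intervals are 95% intervals of that fit. The study used Cyber-T, which is an alternative here (confidence 10), with its 1.5-fold and unadjusted p of 0.001, or of 0.01 as given elsewhere by the study, as other rules (the methods give the second, the legends of the gene lists the first). Ducts and TEBs were fitted apart, with a mean per genotype and age, and 2 WT duct arrays whose label fields conflict were taken as duct. The table had 0 columns of other series. The scripts were tested on simulated data.

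The members, gene lists and tests were chosen with earlier results of these data known. Named genes were the 15 largest increases and decreases past the adjusted test, genes the study names for luminal and basal identity, the list members with the largest change and the genes with the largest difference between luminal and basal effects. Aoc1, Lpl, Lamb3, Actg2, Itgb4, Itga6, Phactr1, Furin, Kitl and Scara5 were chosen after their values were seen. Of these, Lpl also had the largest change of its list. List members with smaller changes, such as Tgm1, Evpl, Ppl and Sprr1b, are named outside this rule as well. Alternatives were an offset of 16, quantile normalization, scaling, other filters, all probe sets, no variance trend, the luminal arrays alone, the replicate number or the mouse as a block, and leaving out each array.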

Additional observations from a re-analysis of the deposited data

Results flagged for a closer look

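For 6 genes the DN-Clim effect differed between luminal and basal cells by the test of the difference (limma, adjusted p under 0.05). For Tmprss11a the luminal effect exceeded the basal effect by 4.66 on the log2 scale, and its values differed between genotypes in luminal cells. For the others the genotypes differed in basal cells. Nlgn1, a synaptic adhesion protein, had a difference of 4.11 and measured 57.8 and 53.4 in DN-Clim luminal cells and 53.3 and 46.0 in WT luminal cells, against 63.4 and 52.6 in DN-Clim basal cells and 1159 and 681 in WT basal cells. Wif1 had a difference of 4.10. Cacng7, a calcium channel subunit, had a difference of 4.04 and measured 137 and 145 in DN-Clim basal cells and 1806 and 2179 in WT basal cells. Lrrc4c, an adhesion protein of neurons, had a difference of 2.98, and Wfikkn2, a protease inhibitor-like secreted protein, of 2.38. The groups of 2 arrays are too small for a check of single arrays that stand out.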

How the results depend on the processing

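The 7 genes past the adjusted test in luminal cells became 1 with the 4 luminal arrays alone, a gene outside the 7 (Aoc1), so that none of the 7 passed there. They became 165 with Cyber-T and adjusted p, 69 with 1.5-fold and an unadjusted p under 0.001 in limma, 192 with that rule in Cyber-T, and 244 and 479 with 0.01 in place of 0.001, which was chosen after seeing the data. They numbered 2 to 52 when 1 array was left out. Apart from the replicate number as a block, given below, the other settings gave 5 to 10. The 10 genes in basal cells became 16 with an offset of 16 and 3 to 16 when 1 array was left out. The 6 genes whose effect differed between luminal and basal cells became 2 after quantile normalization, 2 with all probe sets and 0 to 5 when 1 array was left out. At 10 weeks alone, the 1924 genes in ducts became 5 and the 151 in TEBs became 0, and Cxcl12 turned to -0.175 in ducts and -0.167 in TEBs on the log2 scale. Krt18 turned to -0.0057 after quantile normalization. Leaving out 1 array turned the sign of Krt5 (-0.33 to 0.59), Krt14 (-0.0906 to 1.14), Acta2 (-0.54 to 1.16), Tnfsf11 (-3.98 to 0.0824) and Fgfr2 (-0.96 to 0.0426). The cause of these shifts was not tested, except that fewer arrays entered where one was left out.

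With the replicate number as a block, 4 genes passed in luminal cells, 9 in basal cells and 2 for the difference. The numbers do not pair the luminal arrays by the labels, and the deviations of same-numbered DN-Clim and WT luminal arrays correlated at 0.05. In basal cells that correlation was -0.16, and a block with the WT basal numbers crossed, chosen after seeing the data, gave 6 genes. Between luminal and basal arrays of the same genotype and number it was 0.22 in DN-Clim and 0.29 in WT. With the mouse as a random block the consensus correlation was 0.24. The main fit held no block, so that its tests treat the sorted-cell arrays as independent.

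Of the settings other than leaving out an array, 897 values of single genes kept their direction and side of the threshold, 109 gained and 24 lost the threshold and 3 turned. The 2 arrays per group limit all comparisons, and values under 150 have no reliable order.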
